A study of Mus musculus and Rattus norvegicus with 24 samples.

Results

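The cytosolic ribosomal protein genes, whose products form the small and large subunits of the ribosome outside mitochondria, were measured in mouse hearts and in cultured rat heart muscle cells. Members were the protein-coding genes of the mouse table whose symbol begins with Rpl or Rps, leaving out the Rps6k kinases, Rps19bp1 and read-through names with a hyphen. This gave 85 of 54532 genes, of which 33 are named for the small subunit (Rps) and 52 for the large subunit (Rpl). The same symbols found 81 of 17327 genes in the rat table, which did not list Rpl10l, Rpl7l1, Rps27rt or Rps3a1.

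The mouse part had 18 libraries of whole heart, 3 in each of 6 groups. By their titles and the design text these were ATF4 conditional knockout (cKO) and control (ctrl) mice, each after sham surgery or at 3 or 7 days after transverse aortic constriction (TAC), in which the aortic arch is narrowed so that the left ventricle pumps against a higher pressure. The sources used here do not give the promoter that drives the deletion or the strain, age and sex of the mice. Their labels also carry an entry for ATF4 overexpression, contrary to the titles, which were followed. The rat part had 6 libraries of neonatal rat ventricular myocytes (NRVM). These are muscle cells of the newborn rat heart, kept in medium with bromodeoxyuridine and given an adenovirus with ATF4 (adATF4, 3 libraries) or with GFP (adGFP, 3 libraries). ATF4 is a transcription factor of the integrated stress response. The labels do not say that libraries came from separate animals or cultures, so every p-value below measures the spread between these libraries, which may in part be technical.

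A ribosome carries nearly all of its proteins as a single copy each, so a growing cell makes the subunits' proteins in matched amounts. Many of these mRNAs begin with a C followed by a run of pyrimidines, the terminal oligopyrimidine (TOP) tract, through which mTOR signalling and LARP1 set how strongly they are translated. A few members have paralogs with their own tissue pattern, and the best known in muscle is Rpl3l, the form of Rpl3 that striated muscle uses in place of the general one.

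The first bases of a gene show which members carry such a tract at the annotated start. The windows below hold 30 bases each, 15 before and 15 from the annotated start, taken on the gene's strand from RefSeq promoters of build GRCm38.p6. Capitals mark the tract, searched as a C at the start followed by at least 4 bases that are each C or T, and read on the gene's strand only. The first 4 genes were higher at 3 d of TAC in control hearts, Rps27 and Rps27rt are the near-identical pair described further on, and Rpl3l has no tract at its annotated start. The windows lie at chr14:18270972-18271001 (minus strand) for Rpl15, chr2:39005117-39005146 (minus) for Rpl35, chr16:33056467-33056496 (plus) for Rpl35a, chr17:33955651-33955680 (minus) for Rps18, chr3:90213634-90213663 (minus) for Rps27, chr9:114982725-114982754 (minus) for Rps27rt and chr17:24727811-24727840 (plus) for Rpl3l.
Rpl15: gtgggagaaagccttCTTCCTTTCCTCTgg
Rpl35: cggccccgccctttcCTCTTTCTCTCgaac
Rpl35a: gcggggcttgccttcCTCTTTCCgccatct
Rps18: tacgtcacttccgctCTCTCTTCCacagga
Rps27: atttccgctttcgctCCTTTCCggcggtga
Rps27rt: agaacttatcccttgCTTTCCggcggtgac
Rpl3l: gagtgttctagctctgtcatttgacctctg
Of the 65 members matched to the promoter table, 14 (21.5%) had the motif at an annotated start, against 813 of 27025 genes (3.01%) in the whole table. A start that is off by a few bases hides the motif, so the absence of a match says only that these letters are not at this position.

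Mouse library totals ran from 15106975 to 18112798 counts, and ribosomal protein genes took 1.09% to 2.08% of them. Levels are given as CPM, TMM-scaled counts relative to the library total. Atf4 RNA was at 31.3 CPM or less in each cKO library and at 34.3 to 91.0 CPM in the ctrl libraries. In the cells Atf4 was higher with adATF4 (log2 fold change 3.21, adjusted p = 1.25e-08, limma). On the first 2 principal components 3 libraries stood apart from the rest of their groups: replicate 3 of ctrl TAC 3 d, and replicate 2 of cKO at both 3 d and 7 d of TAC. In ctrl TAC 3 d replicate 3 mitochondrial genes held 10.6% of the counts and in cKO TAC 7 d replicate 2 they held 14.5%, against 17.5% to 23.0% in the other libraries. Of the 85 members, 82 had enough counts to be tested; in whole hearts a smaller share of a cell type and less RNA per cell cannot be told apart.

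Per gene length as deposited, the members of sham hearts spanned a wide range. The order depends on that length, which can exceed that of a transcript, as for Rps2 (1830 bases, against 962 in a transcript). Rplp1, a protein of the stalk that recruits elongation factors, averaged 706 CPM per kilobase over the 6 sham libraries, followed by Rpl36 (449), the stalk protein Rplp0 (389), Rps15 (370) and Rps3a1 (318). At the other end Rpl10l had no count in any of the 18 libraries, where a count of 0 allows up to 0.166 to 0.199 CPM by library (3 counts, counting error only). Rpl39l and Rpl36al had 0 to 7 counts in each library; these 3 genes are intronless or testis-type copies and were not tested. The lowest tested members per length were Rpl24 (0.504 CPM per kilobase) and Rps10 (0.736).

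Several low or unsteady values touch on reads that could belong to a copy elsewhere in the genome. In the mouse transcripts 51 of the 85 members share at least 50% of their windows of 50 bases with another gene, with a median of 61.2% and a range of 0% to 98.6%, and 296 rows of the table are named as pseudogene copies of 60 members. Those rows together held only 3.94% to 4.56% of the members' own counts. How the authors treated reads with several matches was not stated.

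The clearest case is Rps27, a small subunit protein with a zinc finger, and Rps27rt, its intronless copy. Rps27 shares 98.6% of its windows and Rps27rt 91.1%. Rps27 had 114, 85.8 and 123 CPM in cKO sham hearts, against 35.2, 88.6 and 72.9 CPM in ctrl sham hearts. Rps27rt had 20.2, 43.9 and 30.6 CPM in cKO sham hearts, against 91.3, 12.6 and 40.2 CPM in ctrl sham hearts. In ctrl sham replicate 1 the copy took most of the pair's counts, and in the other sham libraries the parent did. Their mean coefficient of variation within groups was 39.1% for Rps27 and 57.2% for Rps27rt, but 11.2% for the sum, which stayed between 70.3 and 159 CPM. Rpl17 varied by 36.9% alone and by 9.37% with its 11 copy rows added, and Rpl21 by 33.3% alone and 16.6% with 15 copy rows. In both the copy rows were themselves steady (15.7% and 7.98%) and held many of the summed counts, so the sum does not show that reads were exchanged. Rpl38 varied by 21.1% alone and by 20.7% with its 2 copy rows. Rps10 was at 0.817 to 2.89 CPM, far below its 4 copy rows at 36.4 to 62.4 CPM. Values of single genes with such copies are uncertain.

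**Figure D1:**
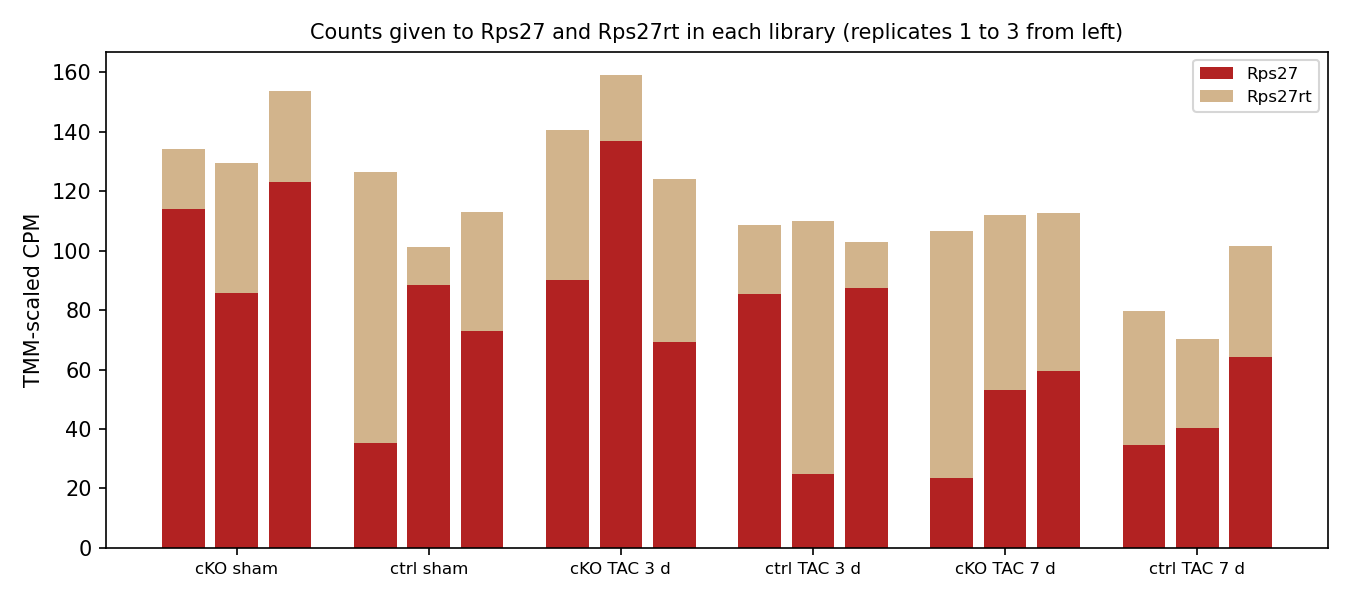
TMM-scaled CPM (y axis) of Rps27 and Rps27rt in each of the 18 mouse libraries (x axis, by group), stacked to their sum. The split between both genes changes from library to library, as in ctrl sham replicate 1 with 35.2 and 91.3 CPM, while the sum stays between 70.3 and 159 CPM.

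Rpl3l had a wide standard error with no such copy. In the fit of all 6 groups 9 members had one above 0.3 log2 units for cKO against ctrl in sham hearts. Of these Rpl3l alone has 0% of its windows shared. That error uses the spread within all groups, not within sham hearts alone. The SD of Rpl3l was 13.8 CPM in cKO sham and 31.2 CPM in ctrl sham hearts, against 32.5 to 83.5 CPM in the TAC groups. The longest run of bases that Rpl3l has in common with Rpl3 is 22, so reads of the pair can be told apart. Rpl3l (ENSMUSG00000002500, GRCm38 chr17:24727820-24736143, plus strand) had 247, 222 and 244 CPM in cKO sham hearts, against 284, 338 and 284 CPM in ctrl sham hearts. At 3 d of TAC it had 239, 145 and 203 CPM in cKO hearts, against 108, 186 and 19.1 CPM in ctrl hearts. At 7 d of TAC it had 100, 33.9 and 121 CPM in cKO hearts, against 151, 207 and 209 CPM in ctrl hearts. The lowest values thus came at 3 d in ctrl hearts and at 7 d in cKO hearts, and in both groups 1 of the libraries that stood apart lay far below its neighbours.

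Rpl3, the general form (ENSMUSG00000060036, GRCm38 chr15:80077791-80091868, minus strand), ran the other way. It had 152, 153 and 149 CPM in cKO sham hearts, against 127, 110 and 113 CPM in ctrl sham hearts. At 3 d of TAC it had 183, 253 and 198 CPM in cKO hearts, against 280, 179 and 332 CPM in ctrl hearts. At 7 d of TAC it had 251, 355 and 263 CPM in cKO hearts, against 191, 140 and 222 CPM in ctrl hearts. Every TAC library was above every sham library of its own genotype. Rpl3 lies 163 kb from Atf4 on chromosome 15, and 85.6% of its windows recur elsewhere, so its counts can include reads of copies; the 2 rows named as its copies held 252.2 counts a library on average, against 3441 for Rpl3.

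**Figure D2:**
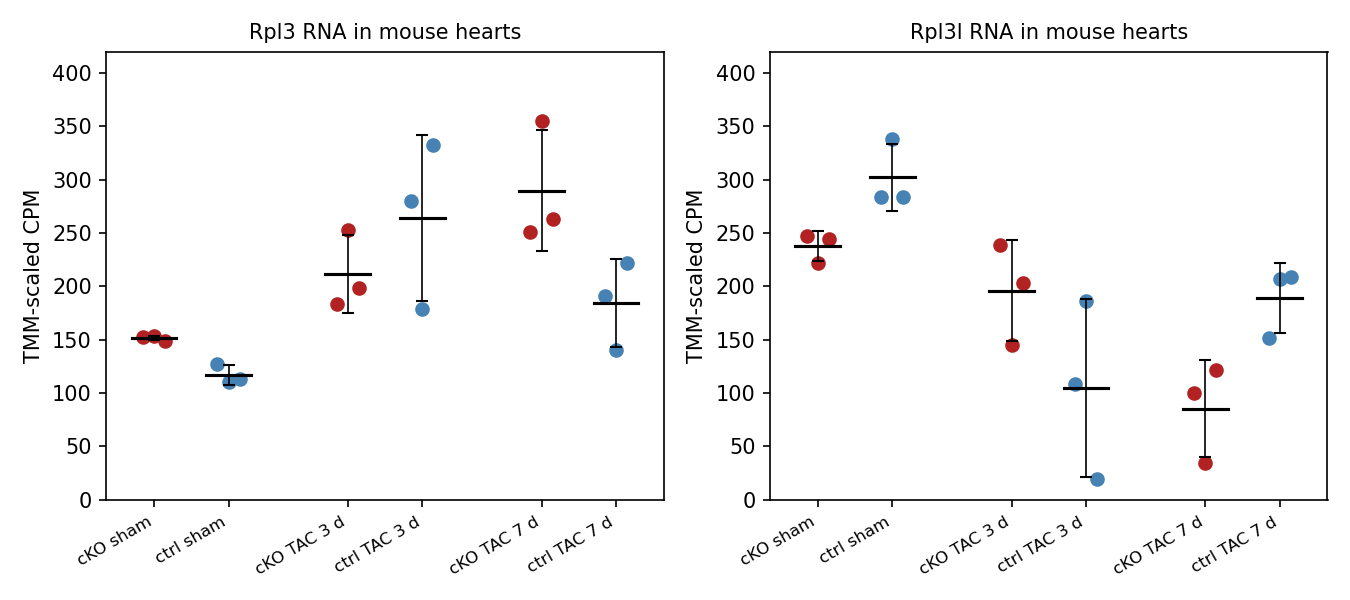
Rpl3 and Rpl3l RNA in TMM-scaled CPM (y axis) in the 6 mouse groups (x axis), with a point for each library and a bar for the group mean and its SD (n = 3). Rpl3 sits at 140 CPM or more in every TAC library, and also in every cKO sham library (149 to 153 CPM). Rpl3l reaches 19.1 CPM in 1 ctrl TAC 3 d library and 33.9 CPM in 1 cKO TAC 7 d library.

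In edgeR's quasi-likelihood test over 15535 genes, Rpl3 was higher at 3 d in ctrl hearts (log2 fold change 1.18 ± 0.21 SE, adjusted p = 0.00102) and at 7 d in cKO hearts (0.93 ± 0.21, adjusted p = 0.007), and both calls held under each of the 15 alternatives run. Rpl3 did not pass at 7 d in ctrl hearts (0.66, adjusted p = 0.061) or at 3 d in cKO hearts (0.48, adjusted p = 0.546). Rpl3l was lower at 3 d in ctrl hearts (-1.53 ± 0.53, adjusted p = 0.0401), a call that was kept in 8 of 15 alternatives. Without ctrl TAC 3 d replicate 3 its fold change was -1.02 (adjusted p = 0.0709), and the call was also lost without ctrl TAC 3 d replicate 1 (adjusted p = 0.0845) or ctrl sham replicate 1 (0.074), 2 (0.0986) or 3 (0.0716). At 7 d in cKO hearts Rpl3l had -1.48 ± 0.53 (adjusted p = 0.054), and neither gene passed in the other contrasts between hearts, including the difference between genotypes in the response to TAC at 3 d (Rpl3 -0.70, adjusted p = 0.186; Rpl3l 1.25, adjusted p = 0.33) and at 7 d (Rpl3 0.27, adjusted p = 0.894; Rpl3l -0.80, adjusted p = 0.892).

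As a share of the pair's counts, Rpl3l held 59.1% to 62.1% in cKO sham hearts, against 69.2% to 75.4% in ctrl sham hearts. At 3 d of TAC it held 56.7%, 36.4% and 50.7% in cKO hearts, against 27.8%, 51.0% and 5.44% in ctrl hearts. At 7 d it held 28.6%, 8.73% and 31.5% in cKO hearts, against 44.3%, 59.6% and 48.4% in ctrl hearts. In 4 of 6 groups the library with the most Rpl3 was the one with the least Rpl3l. In the authors' deposited table the sham difference between genotypes had an adjusted p of 0.0041 for Rpl3 (log2 fold change 0.38) and of 0.0272 for Rpl3l (-0.35). For ctrl TAC 7 d against ctrl sham the authors' deposited table has adjusted p of 9.43e-05 for Rpl3 (0.66) and 8.57e-06 for Rpl3l (-0.68), a contrast that neither gene passed in edgeR. For ctrl TAC 3 d against ctrl sham it has 1.02e-05 for Rpl3 (1.18) and 0.191 for Rpl3l (-1.52).

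Across the 18 heart libraries the genes whose log2 CPM was most like that of Rpl3l were Fndc5 (Pearson r = 0.99), Tecr (0.982), Hrc (0.981), Yipf7 (0.98) and Crat (0.978). The genes most unlike it were Clu (-0.984), Itgav (-0.977), Rtn4 (-0.974), Mvp (-0.974) and Cyb5r3 (-0.974). Fndc5 encodes the precursor of irisin and Hrc a calcium-binding protein of the sarcoplasmic reticulum, both muscle proteins, while Clu encodes the secreted chaperone clusterin and Itgav an integrin chain. Rpl3 had r = -0.852, rank 498 from the lowest of 15534 genes, and the lowest member was Rpl10 (-0.869). These correlations describe libraries that share groups, and 3 of the libraries stand apart.

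At 3 d of TAC in control hearts many ribosomal protein genes were higher than in sham hearts, by a modest amount each. Of 82 tested members 31 were higher and 1, Rpl3l, was lower (39.0%), where 27.2% of all genes tested were called, 14.8% higher and 12.4% lower. The 31 comprised 20 of 49 large subunit and 11 of 33 small subunit members. The median fold change was 0.29 over the tested members and 0.0 over all genes tested, and 79 of 82 members were positive, where 49.8% of all genes were. In 50 members every ctrl TAC 3 d library was above every ctrl sham library and in 1 every library was below, against 20.9% and 21.2% of all genes.

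After Rpl3 the smallest adjusted p was that of Rpsa, which is both a small subunit protein and a laminin receptor. Rpsa had 535, 501 and 601 CPM in ctrl TAC 3 d hearts, against 378, 377 and 344 CPM in ctrl sham hearts (0.58 ± 0.10, adjusted p = 0.00105, edgeR). Rps26, a protein at the mRNA exit of the small subunit, had 177, 146 and 191 CPM in ctrl TAC 3 d hearts, against 124, 121 and 117 CPM in ctrl sham hearts (0.50 ± 0.10, adjusted p = 0.00218). The groups did not overlap for either gene. Rpl39, a very small protein of the peptide exit tunnel, had 79.1, 61.4 and 110.0 CPM in ctrl TAC 3 d hearts, against 52.0, 35.0 and 40.6 CPM in ctrl sham hearts (0.97 ± 0.21, adjusted p = 0.00333). Rpl31, a protein near the exit of that tunnel, had 168, 179 and 216 CPM in ctrl TAC 3 d hearts, against 140, 129 and 115 CPM in ctrl sham hearts (0.55 ± 0.12, adjusted p = 0.0041). Rpl13a, known also as a translational silencer once released from the ribosome, was at a lower level, with 10.1, 8.29 and 12.0 CPM in ctrl TAC 3 d hearts, against 5.61, 5.83 and 6.85 CPM in ctrl sham hearts (0.73 ± 0.14, adjusted p = 0.00195). Rpl13a shares 57.4% of its windows with other genes, so its low level and its change are uncertain. Ctrl TAC 3 d replicate 3 was the highest library for each of these genes, and all 6, Rpl3 included, were called in each of the 15 alternatives.

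The TOP members printed above were higher by 0.30 (Rpl15), 0.55 (Rpl35), 0.43 (Rpl35a) and 0.35 (Rps18) on the log2 scale, with adjusted p of 0.0103, 0.0208, 0.0294 and 0.0389. Among tested members in the promoter table, 4 of 14 with the motif at a start and 22 of 48 without it were called, where 27.2% of all genes were. The 22 include Rpl3l, which was lower.

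The number of members called at 3 d in control hearts depended on single libraries. It was 9 without ctrl TAC 3 d replicate 3, 9 without ctrl sham replicate 3, 11 without ctrl sham replicate 2, 21 without ctrl TAC 3 d replicate 1 and 14 without the 3 libraries that stand apart. Over the single libraries left out in turn it ran from 9 to 43, so it also rose. With libraries scaled by their totals it was 74, 73 of them higher, with the median of all genes shifted to 0.23 and that of the members to 0.53. The shares of all genes called under these settings are not given here, so these counts stand without a background. Cell type markers moved in the same contrast: 10 of 10 macrophage, 7 of 10 fibroblast and 10 of 10 cell cycle genes were higher, and 2 of 10 cardiomyocyte genes were lower. Summed fibroblast markers ran from 3159 to 15963 CPM in ctrl TAC 3 d hearts, against 996 to 1095 CPM in ctrl sham hearts, with the maximum in replicate 3; macrophage markers ran from 502 to 1186 CPM, against 258 to 300 CPM, and cardiomyocyte markers from 44308 to 70936 CPM, against 75509 to 83086 CPM. The part of these cells in the members' levels was not tested.

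**Figure D3:**
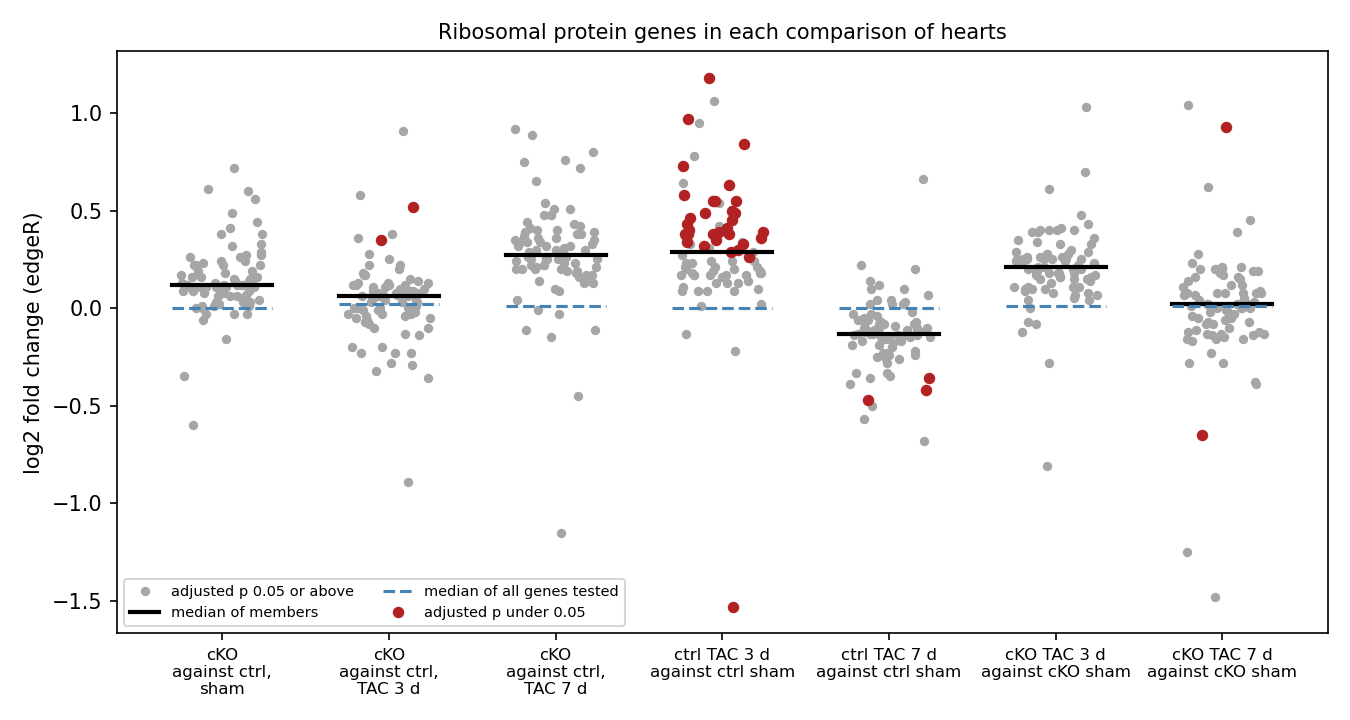
log2 fold change (edgeR, y axis) of each of the 82 tested ribosomal protein genes in 7 comparisons between mouse heart groups (x axis), red where the adjusted p is under 0.05 and grey elsewhere, with the median of the members and of all genes. The members' median is 0.29 for ctrl TAC 3 d against ctrl sham and -0.13 for ctrl TAC 7 d against ctrl sham.

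At 3 d of TAC in cKO hearts no member was called, and none of the 15535 genes was (0.0% called). At an unadjusted p under 0.05 there were 25 of 82 members and 8.44% of all genes, and DESeq2 likewise called no member. The members' median was 0.21, against 0.01 over all genes, and 76 of 82 members were positive, where 51.8% of all genes were. In 41 members every cKO TAC 3 d library was above every cKO sham library, against 9.15% of all genes. Rpsa had 511, 485 and 504 CPM in cKO TAC 3 d hearts, against 402, 411 and 418 CPM in cKO sham hearts. Rpl39 had 74.5, 75.0 and 68.0 CPM in cKO TAC 3 d hearts, against 60.9, 58.5 and 53.3 CPM in cKO sham hearts. Neither pair of groups overlapped, and neither gene passed the test. Summed macrophage markers ran from 385 to 553 CPM in cKO TAC 3 d hearts, against 292 to 317 CPM in cKO sham hearts, and fibroblast markers from 1557 to 1726 CPM, against 901 to 1332 CPM, with no gene called; their part in the members' levels was not tested. The response to TAC at 3 d was not shown to differ between genotypes for any member in the main edgeR fit. The interaction, cKO response minus ctrl response, called 0 of 82 members and 0.669% of all genes. At an unadjusted p under 0.05 there were 4 members and 21.2% of all genes. DESeq2 called 2 members, where it called 5.59% of all genes with an adjusted p. With single libraries left out in turn, edgeR called 0 to 3 members, for which no share of all genes is given. The median in edgeR was -0.09 over members and 0.01 over all genes.

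At 7 d of TAC in control hearts, set against the same sham libraries, most members sat slightly below sham levels. Of 82 tested members 3 were lower and 0 higher (3.66% called), where 7.29% of all genes were called, 4.26% higher and 3.03% lower. Rpl23, a large subunit protein that also binds MDM2, had 102, 114 and 118 CPM in ctrl TAC 7 d hearts, against 167, 150 and 144 CPM in ctrl sham hearts (-0.47 ± 0.11, adjusted p = 0.0236, edgeR). Rps14, which lies by the mRNA path of the small subunit, had 193, 176 and 197 CPM in ctrl TAC 7 d hearts, against 275, 248 and 236 CPM in ctrl sham hearts (-0.42 ± 0.12, adjusted p = 0.0426). Rps15a, another small subunit protein, had 96.1, 87.4 and 113 CPM in ctrl TAC 7 d hearts, against 136, 120 and 126 CPM in ctrl sham hearts (-0.36 ± 0.10, adjusted p = 0.0389). The groups did not overlap for any of these genes. The members' median was -0.13, against 0.0 over all genes, and 14 of 82 members were positive and 68 negative, where 49.9% of all genes were positive. After a correction for gene length the median was -0.03 and 1 member was called, and with coding length -0.01 and 0; 0 were called without replicate 1 or 2 of either ctrl group, and 1 without ctrl sham replicate 3. Other settings raised the count, to 6 with DESeq2 (1 higher and 5 lower), 7 in a fit of both groups alone (1 and 6) and 9 without the 3 libraries that stand apart (1 and 8). DESeq2 called 11.4% of all genes with an adjusted p in this contrast. For the other settings no share of all genes is given, so their counts stand without a background. Of the markers 9 of 10 cell cycle, 2 of 10 macrophage and 1 of 10 fibroblast genes were higher in this contrast, and their part in it was not tested.

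In cKO hearts at 7 d Rpl3 was higher, as above, and Rpl22l1 was lower, making 2 of 82 members, where 21.8% of all genes were called, 11.4% higher and 10.4% lower. Rpl22l1, a paralog of the RNA-binding large subunit protein Rpl22, had 5.89, 10.2 and 8.08 CPM in cKO TAC 7 d hearts, against 13.8, 12.9 and 11.2 CPM in cKO sham hearts (-0.65 ± 0.18, adjusted p = 0.0171, edgeR), called in 10 of 15 alternatives. The adjusted p was 0.0612 without cKO sham replicate 1, 0.0507 without cKO sham replicate 2 and 0.0597 without cKO TAC 7 d replicate 1. Rpl22l1 was also lower in ctrl TAC 7 d hearts, with 9.24, 7.97 and 8.86 CPM, against 14.2, 10.5 and 14.0 CPM in ctrl sham hearts. Those groups did not overlap. The ctrl change was not called in the main fit and was called in 4 of 15 alternatives. The 7 d interaction of Rpl22l1 was not called in any setting. Rpl22 had 102, 126 and 115 CPM in cKO TAC 7 d hearts, against 121, 123 and 131 CPM in cKO sham hearts, which overlap. The members' median was 0.02, against 0.01 over all genes, with 45 of 82 positive, where 51.0% of all genes were. Genes of up to 2033 bases that are no members had a median of -0.16 in the same contrast. The count of members called was 1 without replicate 1 or 2 of cKO sham or replicate 1 of cKO TAC 7 d, and 4 without replicate 3 of cKO TAC 7 d. It also rose with the length correction, as given in the closing section. These counts stand without a share of all genes. Macrophage (8 of 10), fibroblast (7 of 10) and cell cycle (10 of 10) markers were higher in the same contrast, and their part in it was not tested.

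Between genotypes in sham hearts 0 of 82 members were called in edgeR, where 0.0193% of all genes were, and DESeq2 called 0 as well. The authors' deposited table had 4 of 84 members higher and 1 lower with an adjusted p under 0.05, where 0.414% of all genes in that table passed. In edgeR 7 members had an unadjusted p under 0.05, where 3.64% of all genes did. Of the 82 members 74 were positive, where 50.1% of all genes were, and the median was 0.12 against 0.0. In 24 members every cKO library was above every ctrl library, against 6.55% of all genes. For example, Rpsa had 402, 411 and 418 CPM in cKO sham hearts, against 378, 377 and 344 CPM in ctrl sham hearts.

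At 3 d of TAC 2 members were higher in cKO than in ctrl hearts (2.44%), where 17.1% of all genes were called, 7.73% higher and 9.36% lower. Rps13, a small subunit protein, had 177, 209 and 172 CPM in cKO TAC 3 d hearts, against 127, 144 and 117 CPM in ctrl TAC 3 d hearts (0.52 ± 0.10, adjusted p = 0.00452, edgeR). Rps27l, a paralog of Rps27 known as a target of p53, had 61.5, 66.8 and 59.4 CPM in cKO TAC 3 d hearts, against 47.7, 54.9 and 45.1 CPM in ctrl TAC 3 d hearts (0.35 ± 0.10, adjusted p = 0.0243). Neither gene's groups overlapped. Over the members the median was 0.06, against 0.02 over all genes, and 52 of 82 were positive, where 51.9% of all genes were. Without the 3 libraries that stand apart neither was called (Rps13 0.34, adjusted p = 0.0661; Rps27l 0.21, adjusted p = 0.286), and there was 1 call without replicate 1 or 3 of ctrl TAC 3 d or replicate 2 of cKO TAC 3 d, and 5, 3 higher and 2 lower, without replicate 2 of ctrl TAC 3 d. With library totals 1 member was higher and 5 were lower, with a median of -0.18. Shares of all genes under these other settings are not given, so their counts stand without a background. With a correction for gene length Rps27l had 0.17 (adjusted p = 0.149). In this contrast 5 of 10 macrophage, 6 of 10 fibroblast and 10 of 10 cell cycle markers were lower in cKO hearts, and their part in it was not tested.

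Rps27l had the same order of genotypes in every condition. In sham hearts it had 53.8, 51.5 and 52.7 CPM in cKO, against 45.2, 41.4 and 42.6 CPM in ctrl (0.29 ± 0.10, adjusted p = 0.999). At 7 d of TAC it had 47.5, 43.2 and 50.4 CPM in cKO, against 32.3, 35.6 and 40.0 CPM in ctrl (0.39 ± 0.10, adjusted p = 0.0973). All 3 cKO libraries were above all 3 ctrl libraries each time, though the test passed at 3 d alone. That call was kept in 6 of 15 alternatives. Taken by condition, such a separation was seen in 24 of 82 members in sham hearts, 6 at 3 d and 31 at 7 d. Of all genes 6.55%, 15.6% and 11.8% showed it, in that order. Rps27l shares 13.7% of its windows with other genes, and its longest common run with Rps27 is 11 bases.

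At 7 d of TAC 0 of 82 members were called between genotypes in edgeR, where 0.257% of all genes were, but 51 members had an unadjusted p under 0.05, where 17.3% of all genes did, and DESeq2 called 11, all higher in cKO hearts, where it called 3.04% of all genes with an adjusted p. The median was 0.27, against 0.01 over all genes, with 75 of 82 positive, where 51.6% of all genes were, and in 31 members every cKO library was above every ctrl library, against 11.8% of all genes. Rpl39 came nearest to the threshold, with 53.8, 84.4 and 61.8 CPM in cKO TAC 7 d hearts, against 32.6, 30.4 and 44.7 CPM in ctrl TAC 7 d hearts (0.89 ± 0.21, adjusted p = 0.0853). Rps26 had 140, 163 and 156 CPM in cKO TAC 7 d hearts, against 115, 107 and 124 CPM in ctrl TAC 7 d hearts (0.41, adjusted p = 0.0965). Rps28, a small protein by the mRNA exit of the small subunit, had 58.4, 84.4 and 74.3 CPM in cKO TAC 7 d hearts, against 36.5, 40.2 and 55.1 CPM in ctrl TAC 7 d hearts (0.72, adjusted p = 0.113). None of the 3 overlapped between genotypes.

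In that contrast the authors' deposited table had 10 members higher in cKO hearts with an adjusted p under 0.05 and 0 lower, where 3.0% of all genes in that table passed, Rpl3 among the members (log2 fold change 0.64, adjusted p = 0.0351). Marker genes moved in the same libraries, with none called: fibroblast markers summed to 2727 to 5110 CPM in cKO TAC 7 d hearts, against 1329 to 2631 CPM in ctrl TAC 7 d hearts, and macrophage markers to 531 to 566 CPM, against 327 to 476 CPM. Their part in the members' levels was not tested. The interaction at 7 d called 0 of 82 members and 0.0% of all genes, with 0 members and 4.39% of all genes at an unadjusted p under 0.05, and 0 members called by DESeq2.

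The ribosomal protein genes are short, and the libraries differed in how levels ran with length. The tested members had a median deposited length of 1754 bases, against 4043 over all genes tested, and 50 of 82 lay among the shortest genes, those of up to 2033 bases when all genes tested are split by length into 5 equal bins. The Spearman correlation between a gene's length and its deviation from the mean library was -0.30, -0.17 and -0.19 in cKO TAC 3 d hearts, against -0.09, -0.09 and -0.08 in cKO sham hearts. It was 0.21, 0.19 and 0.15 in cKO TAC 7 d hearts, against 0.25, 0.24 and 0.10 in ctrl TAC 7 d hearts. Among genes of that shortest bin that are no members the median log2 fold change was -0.14 in ctrl TAC 7 d against ctrl sham, where the bin of the longest genes had 0.13, and 0.1 in cKO TAC 3 d against cKO sham, where that of the longest had -0.05. It was -0.01 in ctrl TAC 3 d against ctrl sham and 0.0 between genotypes at 7 d, where the members' medians were 0.29 and 0.27. In cKO TAC 7 d against cKO sham it was -0.16, where the bin of the longest genes had 0.15 and the members' median was 0.02. With the length correction the members' median at 3 d in cKO hearts was 0.14.

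**Figure D4:**
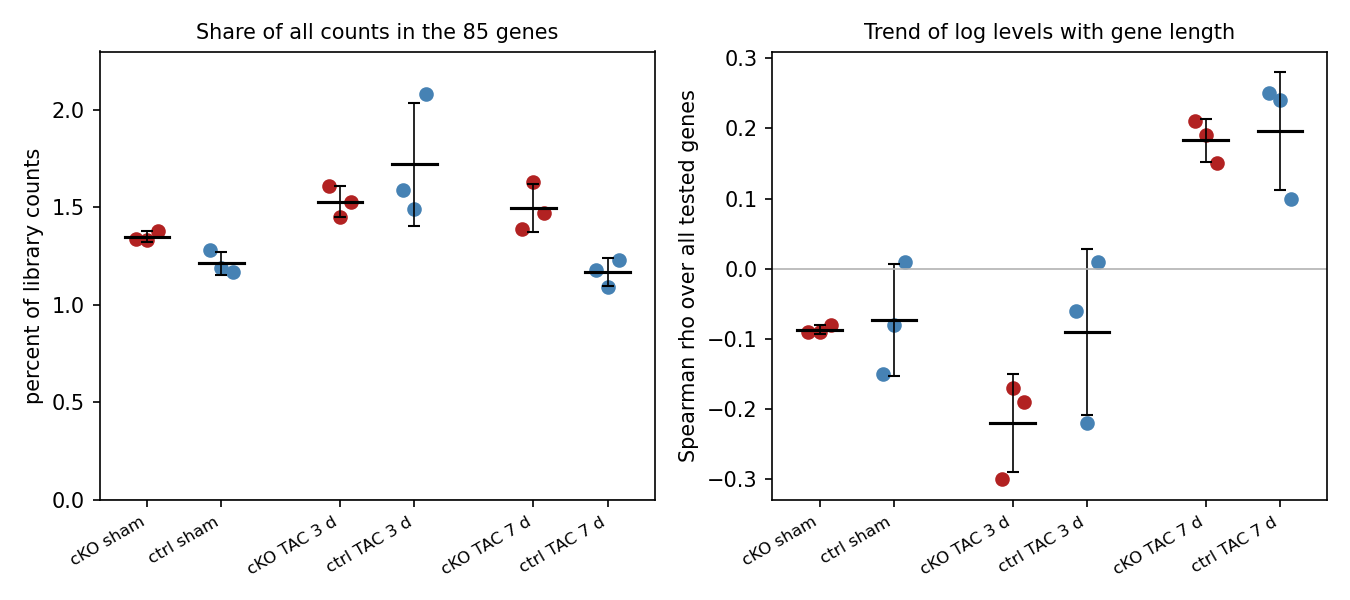
Values of each mouse library (points, by group on the x axis, with bars for the group mean and SD, n = 3): the percent of all counts held by the 85 ribosomal protein genes, and the Spearman correlation over all tested genes between gene length and the library's deviation from the mean library. Shares run from 1.09% in a ctrl TAC 7 d library to 2.08% in ctrl TAC 3 d replicate 3, and the libraries at 7 d of TAC have length correlations of 0.10 to 0.25.

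The genes that make ribosomes or share the TOP tract were followed as lists. Among ribosomal proteins outside the symbol rule, the ribosomal scaffold Rack1 (0.37, adjusted p = 0.0109, edgeR) and Fau (0.45, adjusted p = 0.0373) were higher at 3 d in control hearts. Fau kept its call in 8 of 15 alternatives: leaving out replicate 3 of ctrl TAC 3 d gave 0.26 (adjusted p = 0.209), and leaving out ctrl sham replicate 1, 2 or 3 gave adjusted p of 0.0743, 0.0803 and 0.114. Rack1 kept its call without any single library. Of 32 ribosome biogenesis genes 8 were higher and 0 lower in that contrast (25.0% called, where 14.8% of all genes were called higher and 27.2% called; median 0.16), led by Nhp2 of the pseudouridylation particles (0.69, adjusted p = 0.00146). In cKO hearts at 7 d 10 were higher and 0 lower (31.2% called, where 11.4% of all genes were called higher and 21.8% called; median 0.24), led by Rrp12, a factor for export of the subunits (1.01, adjusted p = 0.00362), and in ctrl hearts at 7 d Rrp12 alone was higher (1.22, adjusted p = 0.00511). The counts moved with single libraries: at 3 d in ctrl hearts 3 were called without replicate 1 of ctrl sham or of ctrl TAC 3 d and 5 without ctrl sham replicate 2 or 3, and at 7 d in cKO hearts 1 was called without replicate 2 of cKO TAC 7 d and 6 without cKO sham replicate 1. With library totals the counts were 17 at 3 d in ctrl hearts and 16 at 7 d in cKO hearts. Here the counts under other settings have no share of all genes beside them. Between genotypes 0 of the 32 were called in any condition, where 0.0193%, 17.1% and 0.257% of all genes were called in sham hearts and at 3 and 7 d. At 3 d this changed to 8 lower in cKO hearts with library totals (median -0.26), to 1 lower without ctrl TAC 3 d replicate 1 and to 2 higher without ctrl TAC 3 d replicate 2.

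Of 18 other TOP mRNAs 3 were higher and 2 lower at 3 d in control hearts (27.8%), close to the 27.2% of all genes called. The poly(A)-binding protein gene Pabpc1 was higher there (0.83, adjusted p = 0.000273, edgeR) and lower in cKO than in ctrl hearts at 3 d (-0.63, adjusted p = 0.00285). Naca, a subunit of the nascent chain complex whose gene also has a long muscle form, was lower at 7 d in cKO hearts (-0.88, adjusted p = 0.00185). In that contrast 2 of the 18 were higher and 2 lower (22.2%), close to the 21.8% of all genes called. Of 14 genes of RNA polymerase I and its factors 1 was higher and 2 lower at 3 d in control hearts (21.4%): Myc, a driver of ribosome production, had 1.55 (adjusted p = 0.00415) and Polr1a, the largest subunit, -0.50 (adjusted p = 0.000549). Of 12 signalling genes 3 were lower in that contrast (25.0%, where 12.4% of all genes were lower), among them Tsc1 and Tsc2, whose complex restrains mTOR, and 3 were higher at 7 d in control hearts (25.0%, where 4.26% of all genes were higher), with Mtor itself first (0.80, adjusted p = 0.00311). Mtor was also higher at 7 d in cKO hearts (0.60), and Tsc2 (0.50, adjusted p = 0.00387) and Tsc1 (0.42, adjusted p = 0.0107) were higher in cKO than in ctrl hearts at 3 d. Tsc1 kept that call in 10 of 15 alternatives, with 0.20 (adjusted p = 0.229) under library totals and losses without replicate 1 of ctrl TAC 3 d (adjusted p = 0.0537) or replicate 2 of cKO TAC 3 d (0.055). Its fall at 3 d in control hearts was likewise lost without ctrl TAC 3 d replicate 1 (adjusted p = 0.0753) or ctrl sham replicate 3 (0.0574).

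In the rat cells 10 of 80 tested ribosomal protein genes were called with adATF4 (12.5%), 8 higher and 2 lower, where 50.6% of all genes tested were called, 24.2% higher and 26.4% lower. Of the 80, 32 were positive, where 47.1% of all genes were. The members' median was -0.05 and that of all genes -0.04, on the log2(FPKM + 1) scale of the limma test. Rpl34 had 398, 407 and 374 FPKM with adATF4, against 810, 662 and 719 FPKM with adGFP (-0.89 ± 0.10, adjusted p = 3.81e-05). Rpl21 had 1409, 1425 and 1438 FPKM with adATF4, against 943, 981 and 967 FPKM with adGFP (0.56 ± 0.08, adjusted p = 0.000298). Both are large subunit proteins whose genes have many processed copies in rodents, and the rat quantifier is not given, so these 2 values are uncertain.

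The paralog Rps27l had 392, 326 and 384 FPKM with adATF4, against 239, 190 and 206 FPKM with adGFP (0.79 ± 0.11, adjusted p = 0.000202, limma). Rps27 did not pass (0.07, adjusted p = 0.651). Rps27l was thus higher with added ATF4 in the cells and higher in hearts of the knockout, 3 d after TAC. Rpl22l1 had 238, 176 and 216 FPKM with adATF4, against 166, 132 and 142 FPKM with adGFP (0.51 ± 0.13, adjusted p = 0.00692), and Rpl22 did not pass (-0.08, adjusted p = 0.577).

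Rpl3 had 876, 859 and 832 FPKM with adATF4, against 840, 865 and 846 FPKM with adGFP, and the groups overlapped (0.01, adjusted p = 0.936). Rpl3l was at 0.0 to 0.272 FPKM in the 6 rat libraries and was not tested. Other members called were Rpl7 (0.34, adjusted p = 0.0104), Rps26 (0.35, 0.0106), Rpl4 (0.33, 0.0192), Rpl38 (0.31, 0.0484) and, lower, Rps29 (-0.41, 0.0104). Without adGFP replicate 3 the number called was 27, 10 higher and 17 lower, and without adATF4 replicate 1 it was 6, when Rps26 (adjusted p = 0.052) and Rps29 (0.0601) were no longer called; Rps29 was also lost without adATF4 replicate 3 (0.0549). For the counts with a library left out the share of all genes is not given, so they stand without a background. Rps16 shows how far single members can scatter, with 297, 176 and 267 FPKM with adATF4, against 35.3, 166 and 330 FPKM with adGFP.

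In the same cells 21 of 28 tested ribosome biogenesis genes were higher with adATF4 and 0 lower, where 24.2% of all genes were higher and 26.4% lower, with a median of 0.73. Nolc1, a nucleolar assembly factor, rose by 1.71, Wdr12 of the large subunit pathway by 1.38 and Ltv1 of the small subunit pathway by 1.20 on that scale. Of 10 signalling genes 4 were higher and 0 lower, with Eif4ebp1, the repressor of cap-dependent translation, at 1.56, the mTOR inhibitor Ddit4 at 1.40 and Mtor at 0.70. Of 18 other TOP mRNAs 5 were higher and 0 lower (27.8%, near the 24.2% of all genes called higher), with a median of 0.08. Of 13 genes of the polymerase I list 3 were higher and 1 lower (30.8%), Myc among the higher ones at 1.00. Cardiomyocyte markers (6 lower and 1 higher of 10) and fibroblast markers (8 lower of 9) moved in the same libraries, and their part in these values was not tested.

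**Figure D5:**
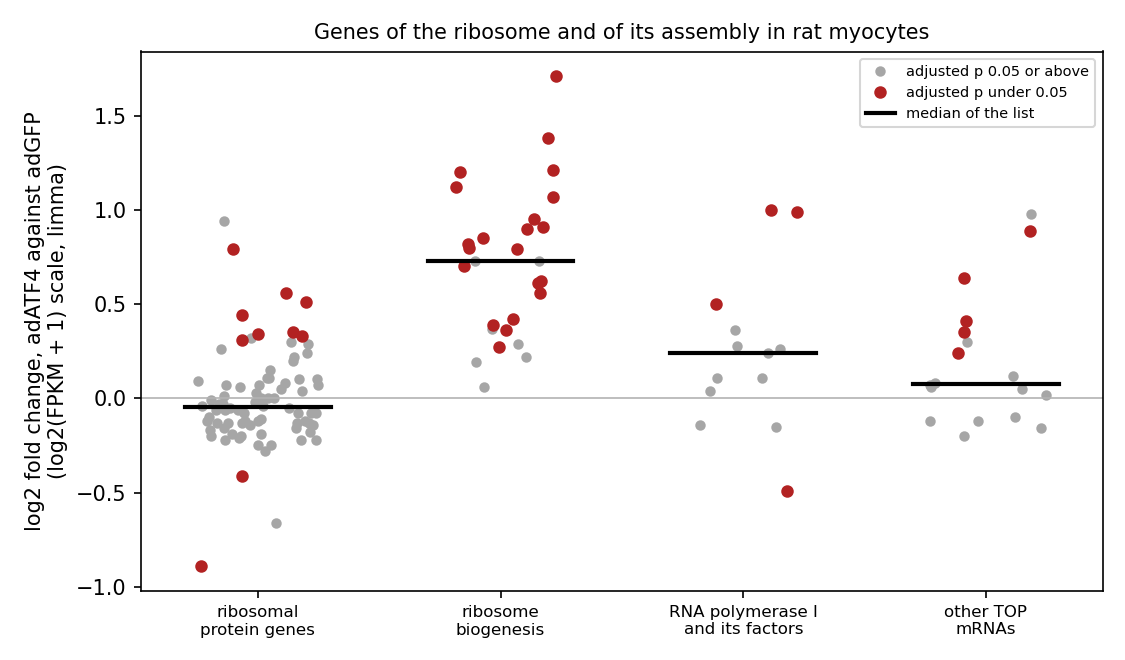
log2 fold change with adATF4 against adGFP (limma, log2(FPKM + 1) scale, y axis) of each tested rat gene in 4 lists (x axis), red where the adjusted p is under 0.05 and grey elsewhere, with each list's median as a bar. Ribosomal proteins centre on -0.05 and the biogenesis genes on 0.73.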

How the data were processed

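The mouse table, as the authors deposited it, holds unnormalized counts for each Ensembl ID in 18 libraries. Per the file headers it also holds a gene length, positions (those of GRCm38) and the authors' deposited log2 fold changes with adjusted p-values. The rat table as deposited holds FPKM by gene symbol in 6 libraries; its read depth is unknown. Per the submitters' processing notes Bowtie 0.12.2 and build mm9 are listed with no role. The sources used here name no counting tool, strand setting or rat quantifier. Another 6 columns of per-sample values matched no sample and were not used, and 26 rat names turned into dates were left out.

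For the hearts edgeR 4.0.16 (R 4.3.3) was used on the counts (filterByExpr, TMM, 1 quasi-likelihood model of the 6 groups over all 18 libraries), and for the cells limma 3.58.1 on log2(FPKM + 1), kept to genes reaching 1 FPKM in 3 or more libraries; this scale understates changes of low genes. P-values were two-sided and adjusted by Benjamini-Hochberg over all genes of a comparison; called, higher and lower mean an adjusted p under 0.05. CPM is a count relative to the TMM-scaled library total. Each fit was tested on simulated data. Libraries of a group were not copies of each other (0 identical pairs). The length correction took each library's lowess trend over deposited gene length, or over coding length from GENCODE M21, as an offset.

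The members, lists and naming rule were chosen with earlier results of these data known. Named were the paralogs, up to 6 called members a direction and comparison by adjusted p, the 5 highest and lowest levels per length, the 5 genes most and least like Rpl3l, and up to 3 called genes a list. Examples that did not pass were chosen after their values were seen, as were Rpl17, Rps16, Rpl15, Rpl35, Rpl35a and Rps18. Some genes that the rule names are not reported here.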

Additional observations from a re-analysis of the deposited data

How the results depend on the processing

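Counts of ribosomal protein genes called moved by over 1.5 times under some settings; the cause was not tested. With libraries scaled by their totals, 6 members (1 higher and 5 lower, where 2 were higher in the report) were called for cKO against ctrl at TAC 3 d, 1 at TAC 7 d, 74 for ctrl TAC 3 d against ctrl sham, 0 for ctrl TAC 7 d, 1 for cKO TAC 7 d and 1 for the 3 d interaction. With no filter on low counts there were 13 for cKO against ctrl at TAC 7 d, 2 for cKO TAC 3 d, 7 for cKO TAC 7 d, 4 for the 3 d and 1 for the 7 d interaction. With DESeq2 1.42.0 there were 11 for cKO against ctrl at TAC 7 d, 6 for ctrl TAC 7 d, 4 for cKO TAC 7 d and 2 for the 3 d interaction. There DESeq2 called 3.04%, 11.4%, 23.6% and 5.59% of all genes with an adjusted p, in that order. The shares of all genes under the other settings are not given here, so those counts stand without a background. The length correction gave 1 for ctrl TAC 7 d and 6 for cKO TAC 7 d, and coding length, added after seeing the data, 0 for ctrl TAC 7 d. Fitted on the compared groups alone, there were 0 for cKO against ctrl at TAC 3 d, 11 for ctrl TAC 3 d, 7 for ctrl TAC 7 d and 7 for cKO TAC 7 d. Without the 3 libraries that stand apart there were 0 for cKO against ctrl at TAC 3 d, 1 at TAC 7 d, 14 for ctrl TAC 3 d and 9 for ctrl TAC 7 d. Adding copy rows, also chosen after seeing the data, gave 36 for ctrl TAC 3 d.

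Leaving out each library in turn gave 1 to 5 members for cKO against ctrl at TAC 3 d, 9 to 43 for ctrl TAC 3 d, 0 to 2 for ctrl TAC 7 d, 1 to 4 for cKO TAC 7 d, 0 to 3 for the 3 d interaction, 6 to 27 for adATF4 against adGFP, and 0 to 0 elsewhere. Where this left an arm with 2 libraries the spread was still pooled over groups.

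Same-numbered libraries did not deviate together (r from -0.39 to 0.24 over 45 pairs in hearts, -0.06 to 0.22 over 3 pairs in cells). The main fits did not use the numbers as pairs. Still, 5 of 18 and 3 of 6 libraries were closest to their own number, and so few libraries cannot show whether numbers pair samples. A replicate block gave 25 members for ctrl TAC 3 d, 2 for ctrl TAC 7 d and 14 for adATF4 against adGFP.

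Of the values of named genes, 1533 of 1763 kept direction and side of the threshold, 172 lost a call, 34 gained one and 24 changed sign. Over the libraries left out in turn, Rpl22l1 ran from -0.16 to 0.05 in sham hearts, from -0.12 to 0.06 and from -0.32 to 0.06 for the genotypes at 3 and 7 d, and from -0.1 to 0.11 and from -0.29 to 0.1 for the 3 d and 7 d interactions. Rpl39 ran from -0.41 to 0.02 for the genotypes at 3 d and from -0.01 to 0.33 in cKO TAC 7 d, Rps27l from -0.03 to 0.12 in the 3 d interaction, Atf4 from -0.27 to 0.15 in the 7 d interaction, and Rpl3 from -0.01 to 0.03 in the rat cells. Under other settings Rpl22l1 turned to 0.01 in sham hearts (library totals); Rps27l to 0.02 and 0.01 in cKO TAC 7 d (both length corrections) and, in the 3 d interaction, to -0.09 and -0.07 (these), -0.2 (library totals) and -0.08 (without the 3 libraries); and Rpl39 to 0.06 in ctrl TAC 7 d (coding length) and -0.01 in cKO TAC 7 d (without the 3 libraries). None of these values was called in the report.

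The members' median moved beyond its spread in 8 of 157 settings: to -0.18 (cKO against ctrl, TAC 3 d), 0.53 (ctrl TAC 3 d), 0.14 (cKO TAC 7 d) and -0.36 (3 d interaction) with library totals, to 0.14 and 0.12 in cKO TAC 3 d with the length corrections, to -0.01 in ctrl TAC 7 d with coding length, and to -0.18 in the 3 d interaction without ctrl TAC 3 d replicate 2.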
